A study of Homo sapiens with 10 samples.

Results

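The quantity described here is a difference of 2 hormone responses in T47D-Y breast cancer cells that carry an inducible progesterone receptor (PR). For each gene, the change with the synthetic progestin R5020 in cells with the SUMO-deficient receptor (iKR, mutation K388R) was set against the change in cells with the wild-type receptor (iWT), both with AP21967, a dimerizer that switches the vector on. The question it addresses is which genes respond to R5020 to a different extent when the receptor cannot carry SUMO. It rests on 8 of the 10 arrays of the series. 4 arrays with AP21967, namely iWT and iKR with vehicle and with R5020, give the difference itself, and the matching 4 arrays without AP21967 give the same difference for reference. The other 2 arrays, of the vector-only line iEV with and without AP21967 and without R5020, enter no difference.

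Each condition was measured on 1 Affymetrix human genome array, so no difference has a replicate check and none is given a p. The number of arrays limits the precision throughout. All groups derive from T47D-Y, a subline with no PR of its own, and each receptor came in 1 line, so the receptor and the line cannot be told apart in any value below. The paper describes the inducible lines as clonal. Per the labels, cells were starved of serum with AP21967 for 2 days and then given R5020 for 6 h, whereas the methods place 1 day of starvation after 2 days of AP21967. The methods give 1 nM AP21967 and 10 nM R5020, while the sample labels use a notation that reads literally as 10 nM and 100 nM.

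PR is a nuclear receptor that, when bound by a progestin, settles on DNA and recruits coactivators or corepressors to its target genes. SUMO proteins are small relatives of ubiquitin that are joined to lysines of their targets and taken off again by SENP proteases. On PR the acceptor is a lysine of the amino-terminal region, and SUMO attached there is known to damp transcription. Replacing that lysine by arginine (K388R) leaves no site for the modification, while the receptor still binds hormone.

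Values are log2 signals, so that a difference of 1 is 2.0 fold. A gene was called where iKR and iWT differed by 1.5 fold (log2 0.585) or more. Of 10894 genes whose signal reached log2 6 on at least 1 of the 8 arrays, 112 were called higher in iKR (1.03%) and 161 lower (1.48%), together 2.51%. In the reference without AP21967, the same threshold called 15 genes higher (0.138%) and 10 lower (0.0918%), together 0.229%. At 2.0 fold the counts were 15 higher (0.138%) and 13 lower (0.119%), together 0.257%, with AP21967, against 0 and 1 (0.00918%) without it. The standard deviation over genes was 0.24 with AP21967 and 0.16 without it.

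**Figure D1:**
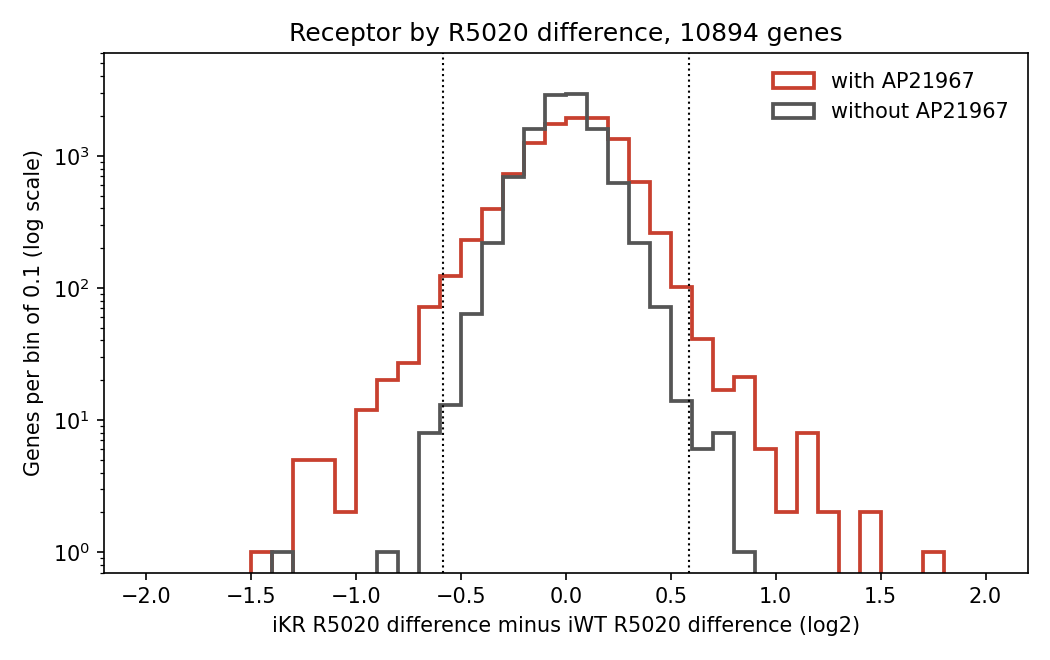
Number of genes (log axis) by the iKR minus iWT difference of the R5020 response in bins of 0.1 (log2), with AP21967 (red) and without it (grey); dotted lines mark 1.5 fold. Both tails reach further with AP21967, where 273 genes lie past the lines, than without it, where 25 do.

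The reference is not pure array error. PGR, the receptor gene itself, read 6.25 and 6.17 on the iEV arrays. It read 11.12 and 10.65 on the iWT and iKR vehicle arrays without AP21967, so receptor RNA was present before induction. With AP21967 and vehicle PGR read 11.34 in iWT and 12.08 in iKR, so it lay further above the uninduced array in iKR. The single gene past 2.0 fold in the reference was ZBTB16, a zinc finger repressor and textbook progestin target. Its signal without AP21967 was 5.95 with vehicle and 7.24 with R5020 in iWT, and 6.16 and 6.14 in iKR, a difference of -1.31. Apart from ZBTB16 no gene of the reference exceeded 0.90, and with AP21967 21 genes were higher and 25 lower by more than that. 6 genes passed 1.5 fold in both states, namely HAUS6, JAG1, NAA16, SLC39A7, SSR3 and ZNF652, and 4 of the 6 had the same sign in both.

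The labelled cell type fitted its markers. All 8 luminal epithelial markers, among them KRT8, KRT18, GATA3 and ESR1, were above log2 6 on every array, with medians of 13.4 to 13.97, and KRT18 reached 15. Passing log2 6 alone does not mark a cell type, since the 3 leukocyte markers measured also did so on every array. Basal or myoepithelial markers, the brightest other list by median, had medians of 7.71 to 7.92. Of the 8 luminal markers, none was called in either direction, beside 2.51% of all genes. Their median difference was -0.14 against 0.04 over all genes. Their summed level on the log2 scale was 16.79 with R5020 and 16.90 with vehicle in induced iWT, and 16.69 and 16.83 in induced iKR. The probe sets for the 5' and 3' ends of GAPDH and ACTB differed by -0.14 to 0.19 on all arrays. The part of these shifts in the differences below was not tested.

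A shift with signal level also ran through the induced iWT pair. The median R5020 difference in iWT went from 0.08 for genes at log2 6 to 7 to -0.10 for genes at log2 10 to 12, while in iKR it stayed between 0.01 and 0.04 over the same levels. The median receptor difference accordingly moved from -0.04 to 0.11. After cyclic loess, 87 of the 112 genes called higher and 157 of the 161 called lower were still called.

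The gene with the largest positive difference was RASGRP1, an exchange factor that loads RAS with GTP. It lay between 5.07 and 5.23 on the 6 arrays without the pair of compounds, at 7.39 in iWT and at 9.16 in iKR with both. The responses were thus 2.17 and 3.96, and the difference was 1.79, beside 0.05 without AP21967.

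MSX2, a homeobox factor of skin, bone and mammary development, followed with 1.49. Its signal in iWT was 9.13 and 9.15 without AP21967, then 9.20 with AP21967 and vehicle and 8.96 with R5020. In iKR it was 9.10 and 9.09, then 8.998 and 10.24. The iKR array with both compounds stood alone above the other 7, which covered 8.96 to 9.20, and the iWT response had the opposite sign.

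ASB9, an ankyrin repeat protein of cullin ubiquitin ligases, showed the same form at a lower level. It lay between 5.89 and 6.26 on 7 arrays and at 7.83 on the iKR array with both compounds. Its difference was 1.49 with AP21967 and -0.05 without it.

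MAP1A, a microtubule-associated protein, responded in both lines. Its signal in iWT was 8.34 with AP21967 and vehicle and 9.05 with R5020, and in iKR 8.56 and 10.57, with 8.39 to 8.59 on the arrays without AP21967. The difference was 1.299. The 2 dimmer MAP1A probe sets, at means of 6.64 and 6.81, gave 0.27 and 0.23, no larger than their values of -0.31 and 0.27 without AP21967.

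**Figure D2:**
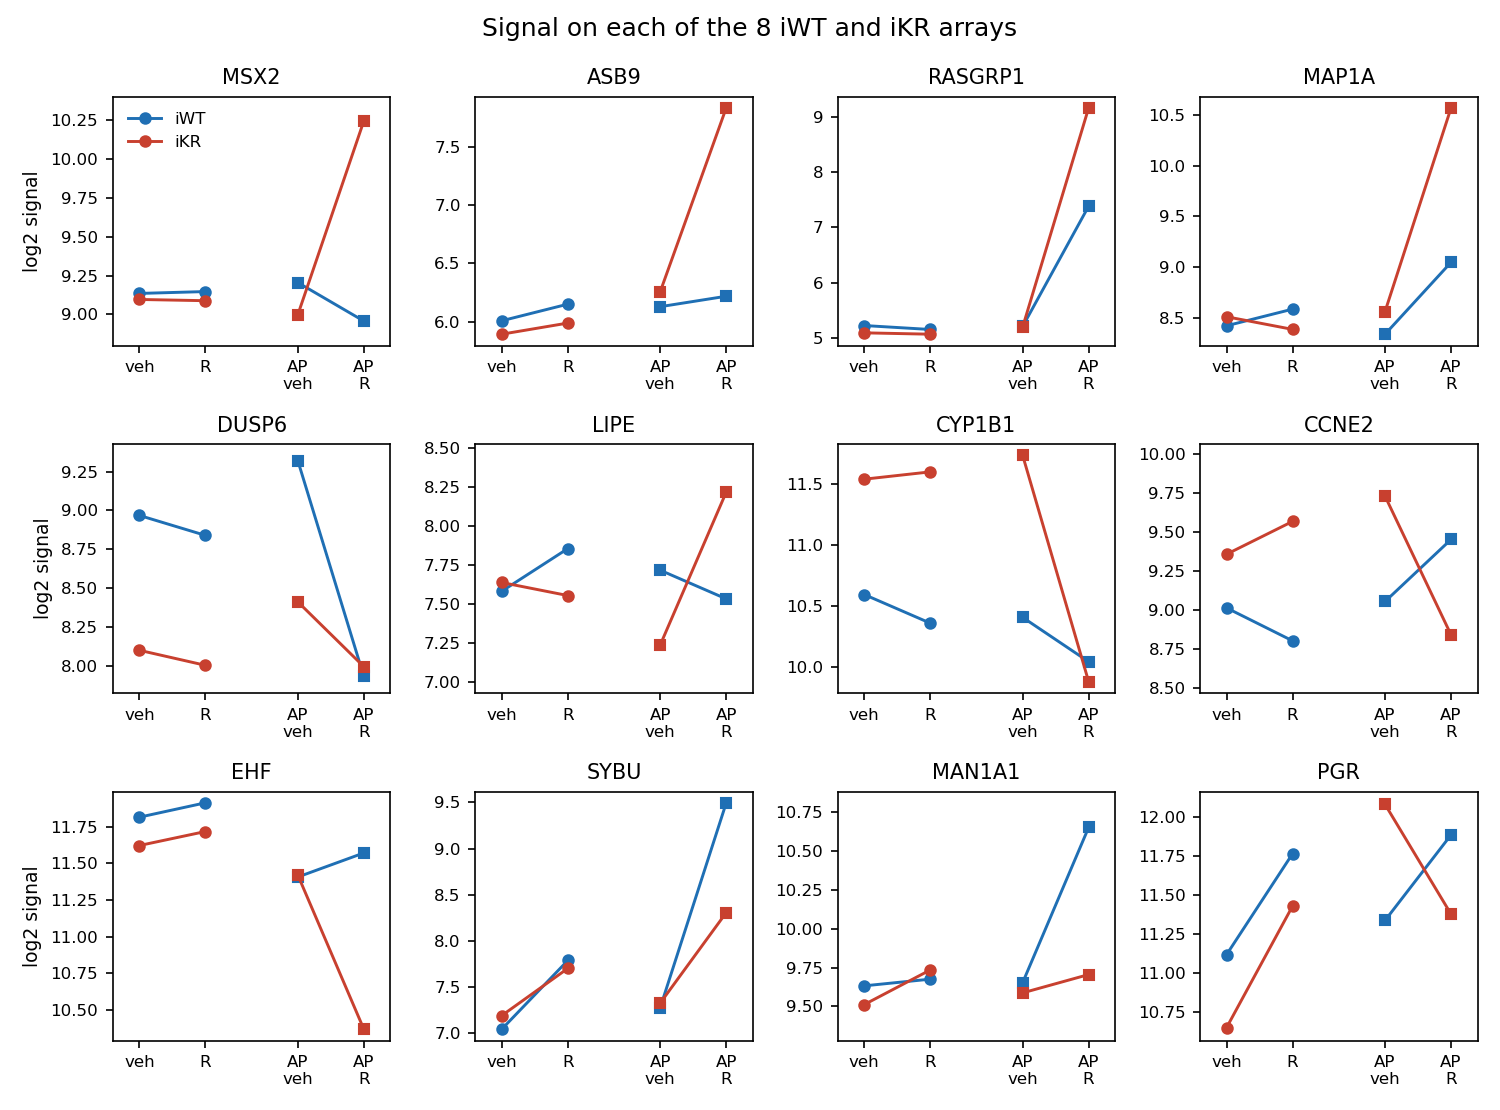
Log2 signal of 12 genes on each of the 8 iWT (blue) and iKR (red) arrays; each point is 1 array, circles without and squares with AP21967 (AP), and lines join vehicle (veh) to R5020 (R). MSX2 and ASB9 go up on a single array, iKR with both compounds, whereas SYBU and MAN1A1 go up further in iWT; the y axes differ between panels and do not start at 0.

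The other genes among the 12 highest differences were ATG12 (1.26), KIAA0513 and NPTX1 (1.19 each), RGS19 and LIPE (1.17 each), CDH10 (1.16), ZNF26 (1.13) and NDRG1 (1.12). ATG12, which conjugates to ATG5 in autophagosome formation, went from 9.38 to 10.81 in induced iKR and from 9.75 to 9.92 in iWT. Its difference without AP21967 was 0.49, because the iKR vehicle array there was the lowest of the 8 at 9.28. NPTX1, a secreted neuronal pentraxin, went from 6.81 to 8.81 in iKR and from 6.97 to 7.77 in iWT.

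LIPE, hormone-sensitive lipase, read 8.22 in iKR with both compounds and 7.24 to 7.85 on the other 7 arrays. The iKR array with AP21967 alone was the lowest of the 8, so that the difference of 1.17 fell to 0.93 against the mean of the 3 other iKR and iWT arrays of each line. A second, dim LIPE probe set near log2 6 had -0.13.

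RGS19, a GTPase-activating protein for G protein alpha subunits, was flat in iWT at 8.79, 8.84, 8.93 and 9.04. In iKR it read 8.82, 8.80 and 8.81 and then 10.09 with both compounds.

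The called genes had different forms of response. Among the 112 called higher, 58 were higher with R5020 by 1.5 fold in iKR only and 24 in both lines. A further 6 were lower by 1.5 fold in iWT only, and 24 passed 1.5 fold in neither line. Over the 112 genes the median response was 0.15 in iWT and 0.91 in iKR. Before R5020 iKR lay below iWT by a median of 0.10 and after it above by 0.64.

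The 6 genes that were lower in iWT only are CDH10, DUSP6, SNPH, HEY1, PPFIBP2 and H3-3A. DUSP6, a phosphatase that switches off ERK, was at 8.97 and 8.84 in uninduced iWT, then at 9.32 with AP21967 and 7.93 with R5020 added. In iKR it was at 8.10 and 8.005, then at 8.41 and 7.996. Thus iKR began 0.91 below iWT and the lines were 0.06 apart after R5020. The 2 further DUSP6 probe sets gave differences of 0.53 and 0.64 beside 0.97 for the brightest, and 1 of them had 0.47 without AP21967.

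HEY1, a Notch target repressor, went from 9.37 to 8.63 in iWT and from 9.34 to 9.43 in iKR, with equal starting levels. SNPH, a mitochondrial anchor of axons, went from 9.06 to 8.27 in iWT and from 8.45 to 8.58 in iKR. CDH10, a cadherin, is a difference between unlike levels. It was at 12.35 and 11.64 in induced iWT but at 6.28 and 6.72 in iKR, and between 6.65 and 6.74 in uninduced iKR, near the filter on low signals.

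The 161 genes called lower were mostly genes that were lower with R5020 in iKR alone, 98 of them. Another 9 were lower in both lines, 12 were higher in iWT only, 5 were higher in both but less so in iKR, and 37 passed 1.5 fold in neither line. Their median response was 0.02 in iWT and -0.70 in iKR. Their median difference without AP21967 was 0.17, opposite in sign to the call, whereas that of the genes called higher was 0.003. No gene passed 1.5 fold in opposite directions in the 2 lines.

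CYP1B1, a monooxygenase that hydroxylates estrogens and is induced through the aryl hydrocarbon receptor, had the largest negative difference, -1.49. It was at 10.60 and 10.36 in uninduced iWT, without and with R5020, and at 10.41 and 10.05 after AP21967. In iKR it was at 11.54 and 11.60, then at 11.74 and 9.88. With AP21967 iKR thus began above iWT by 1.33 and ended below it. The 3 further CYP1B1 probe sets gave -0.79, -1.10 and -0.29, all with the same sign.

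Other genes of the same enzyme family shared the direction. CYP1A1 went from 9.95 to 9.07 in iWT and from 11.76 to 10.25 in iKR, a difference of -0.63 that dropped to -0.41 with the 3 other arrays of each line as baseline. CYP1A2 went from 9.42 to 9.23 and from 10.19 to 9.34, a difference of -0.66. That CYP1A2 probe set is of a type that can match related transcripts. The second CYP1A2 probe set, at a mean of 7.41, gave -0.18, and 0.22 without AP21967. CYP1A1 and CYP1A2 also began higher in iKR, so the lower values with R5020 brought the lines closer. AHR itself, the receptor, had -0.57, just short of the threshold, and its partner ARNT 0.06. Of 18 genes of the aryl hydrocarbon pathway and steroid enzymes, CYP1B1, CYP1A1 and CYP1A2 were called lower and 2 were called higher. That is 27.8% beside 2.51% of all genes, on a list written with earlier results of these data known. The median difference of the list was -0.02 against 0.04 over all genes. HSD17B1 and HSD17B2, which reduce and oxidise estrogens at position 17, were called higher at 0.81 and 0.63. TIPARP, another target of AHR, had responses of 2.02 and 2.07 and a difference of 0.06.

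CCNE2, which encodes a cyclin of S phase entry, went from 9.05 to 9.45 in induced iWT and from 9.73 to 8.84 in iKR. The difference was -1.29, but the second CCNE2 probe set gave -0.39, with 8.97 and 9.14 in induced iKR, so the decrease in iKR was seen with 1 probe set only. CCNE2 was the only called gene of 28 on DNA replication and S phase (3.57%, beside 2.51% of all genes). None of 27 mitosis genes was called, although TTK had -0.56, and a list of that size would hold under 1 at the share over all genes.

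EHF, an ETS factor of epithelia, lay between 11.41 and 11.91 on 7 arrays and at 10.37 on the iKR array with both compounds. RP2, a GTPase-activating protein for ARL3, was at 8.10 to 8.51 on 7 arrays and at 6.98 on that array. ACTL6A, a subunit of chromatin remodellers, was at 10.52 to 10.83 on 7 and at 9.62 on that array. In these genes 1 array alone carries the difference of -1.22, -1.20 and -1.12.

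GRAMD1C, a sterol transfer protein, was lower in both lines, from 7.76 to 7.07 in iWT and from 8.03 to 6.23 in iKR. MPZL2, an adhesion molecule of epithelia, had -1.18 and TSPAN12, a tetraspanin of Norrin signaling, -1.05. The second MPZL2 probe set, at a mean of 7.80, gave -0.32. It read 7.86 and 7.85 in induced iKR, so the MPZL2 decrease in iKR was seen with 1 probe set only.

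Among genes that were higher with R5020 by 1.5 fold in both lines, 5 were called lower in iKR. SYBU, a syntaphilin-like protein of kinesin transport, went from 7.28 to 9.49 in iWT and from 7.33 to 8.31 in iKR, beside 7.05 and 7.79 in iWT and 7.19 and 7.70 in iKR without AP21967. G6PC1, a glucose-6-phosphatase subunit, went from 4.29 to 6.27 in iWT and from 4.35 to 5.17 in iKR, and reached log2 6 on that 1 array. SLC26A3, an anion exchanger, had responses of 2.55 and 1.73, PMAIP1, the BH3-only protein NOXA, 1.70 and 1.01, and NET1, a RHOA exchange factor, 1.52 and 0.85.

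Genes higher with R5020 in iWT and flat in iKR included MAN1A1, a Golgi mannosidase that trims N-glycans. It read 9.65 and then 10.65 in iWT and 9.59 and then 9.70 in iKR. TOX3, a chromatin protein, read 8.51 and 9.27 against 8.63 and 8.53. CCND1, cyclin D1, was higher in both lines, at 8.35 and 9.40 in iWT and 8.41 and 8.83 in iKR, but by under 1.5 fold in iKR. Its difference was -0.63, and -0.42 for its second probe set. ZNF652, a zinc finger repressor, had -1.26 with AP21967 but also -0.70 without it, since uninduced iWT already went from 8.84 to 10.22 with R5020.

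PGR itself was among the 12 lowest. Its signal was 11.34 and 11.89 in induced iWT, without and with R5020, and 12.08 and 11.38 in induced iKR. The difference was -1.26, but it was only -0.49 with the 3 other arrays of each line as baseline, because the iKR array with AP21967 alone was the highest of the 8. After R5020 iKR thus had less receptor RNA than iWT, by 0.51, and before it more, by 0.75. These are RNA signals, whereas the paper reports by western blot that AP21967 induced iWT and iKR protein equally. The part of the unequal PGR RNA in the other differences was not tested.

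A larger response of every target by 1 factor would also give positive differences for increased genes and negative ones for decreased genes. A common factor was therefore fitted as the slope through the origin of the iKR on the iWT response (total least squares on log2 differences). It was taken over 267 genes that the study lists as increased by progestin with both receptors. That list came from other T47D lines, with constitutive receptor and on another platform. The factor was 1.23, with iKR larger. Of the 267 genes, 184 had a positive difference, and the median responses were 0.47 in iWT and 0.71 in iKR.

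**Figure D3:**
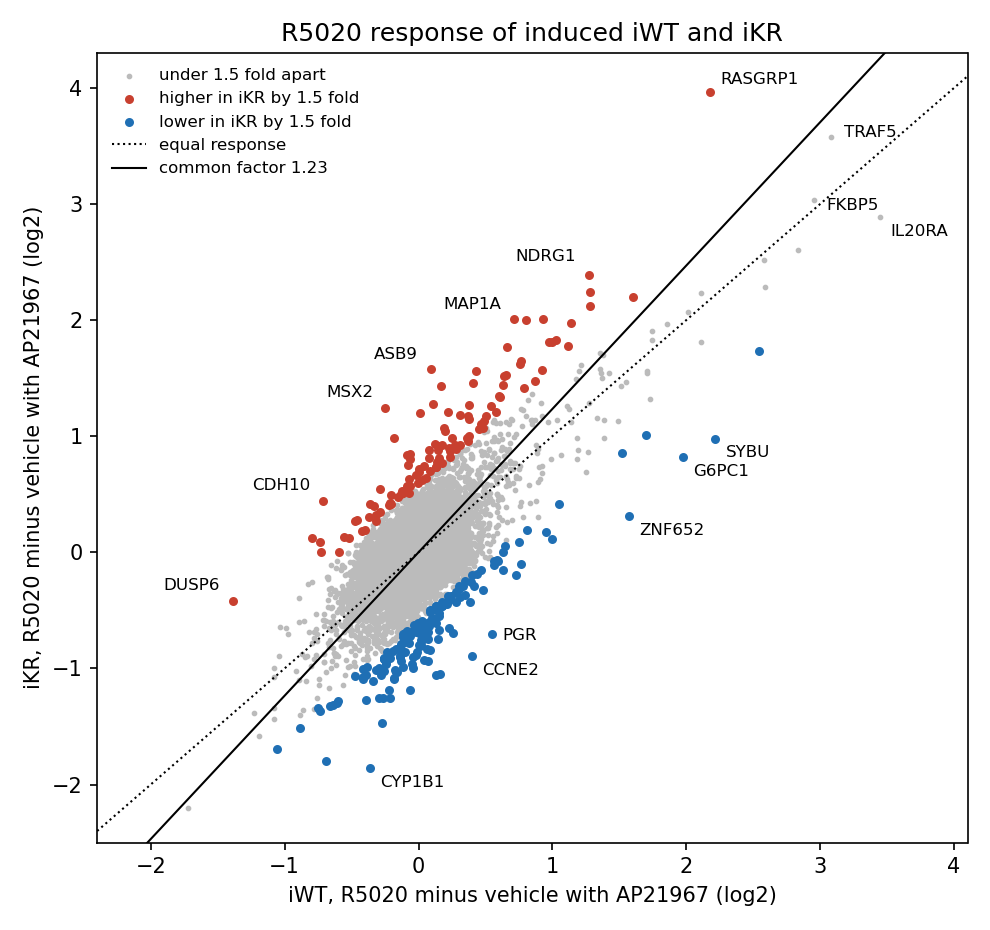
R5020 minus vehicle difference (log2) with AP21967 in iWT (x axis) and iKR (y axis), 1 point a gene; red and blue points differ by 1.5 fold, the dotted line marks equal responses and the solid line the common factor of 1.23. Among the strongest shared responders TRAF5 and FKBP5 lie between the lines, IL20RA lies below the dotted line and RASGRP1 above the solid one, and MSX2, ASB9, SYBU and CYP1B1 lie far from both lines.

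A departure is the iKR response minus 1.23 times the iWT response. By this measure, 121 genes were higher (1.11%) and 200 lower (1.84%) by 1.5 fold, together 2.95%, against 31 (0.285%) and 22 (0.202%), together 0.487%, without AP21967. Of the 112 genes called higher 86 were also departures, and of the 161 called lower 142. For the 267 listed genes, the root mean square was 0.45 for the plain difference and 0.46 for the departure. Without AP21967 it was 0.17 and 0.20. A departure multiplies the iWT response by the factor, noise included. These values therefore do not decide whether 1 factor brought the lines closer together.

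The fitted factor differed between groups of genes made by the size of the response. The groups were made on the mean of the same 2 responses that give the slope. Selection of genes can therefore move the slope by itself, and its part was not tested. Among all genes higher with R5020 in the mean of both lines, it was 1.51 for mean responses of 0.585 to 1 (146 genes), 1.23 for 1 to 2 (63 genes) and 1.04 for 2 or more (10 genes). Among genes lower with R5020 it was 1.55 for 0.585 to 1 (140 genes) and 1.53 for 1 or more (17 genes). The same order over the increased genes was found after cyclic loess, an alternative added after the data were seen, with 1.41, 1.18 and 1.03. The group of 10 strongest genes is small, with 5 positive differences among the 10. Without RASGRP1, a choice also made after the data were seen, its factor was 0.96.

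**Figure D4:**
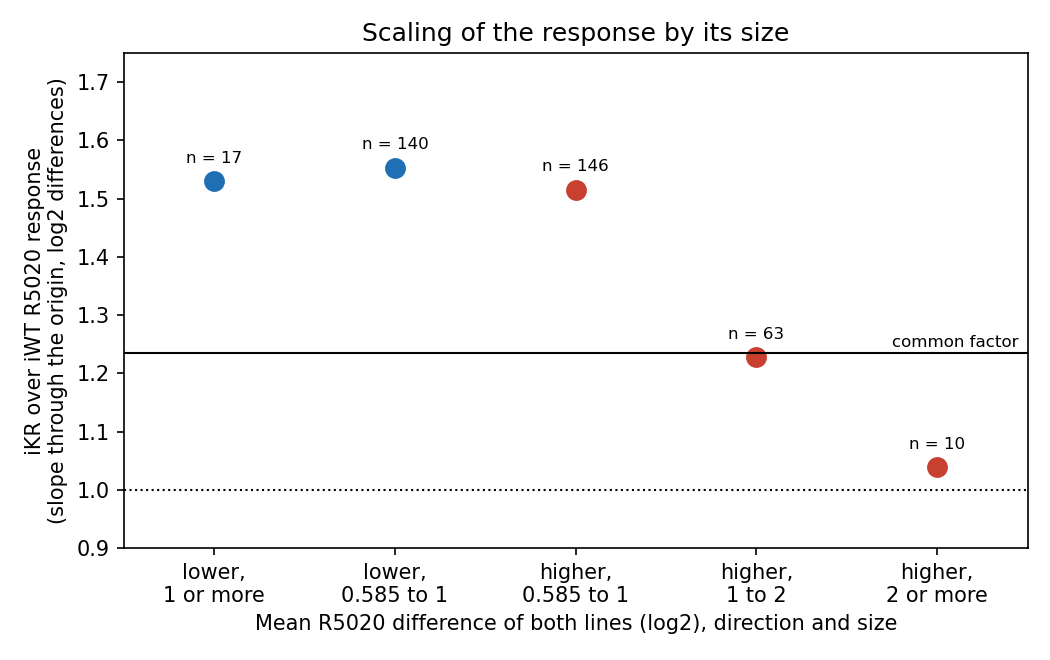
Slope through the origin of the iKR on the iWT R5020 response (log2 differences), with genes grouped by direction and size of the mean response of both lines; blue points are genes lower and red points genes higher with R5020, with the number of genes above each. The slope goes from 1.51 to 1.04 with size for increased genes and is 1.53 and 1.55 for decreased genes. The groups were made on the same responses that give the slope.

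The strongest shared targets went different ways. RASGRP1, which had the third largest mean response, lay above the common factor by 1.28. FKBP5, a cochaperone of steroid receptors, went from 7.81 to 10.76 in iWT and from 7.88 to 10.92 in iKR, a difference of 0.09. RGS2, a regulator of G protein signaling with a smaller response, had -0.08, with 8.02 and 8.09 after R5020. IL20RA, a cytokine receptor chain, had -0.56 and, relative to the common factor, -1.37. TRAF5, an adaptor of TNF receptors, had 0.50, which the factor turned to -0.23. VDR, the vitamin D receptor, was the only one of the 10 largest shared responders with a departure under 0.3 that was itself called, at 0.60, with 9.95 and 11.55 in iWT and 9.99 and 12.19 in iKR.

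26 genes were called higher without being departures. They include SMCO4 (1.14 in iWT, 1.98 in iKR), SLC39A14, a zinc and iron transporter (1.28 and 2.12), ADARB1, an RNA editing enzyme (1.00 and 1.81), and CA12, a carbonic anhydrase (1.03 and 1.83). On the lower side 19 genes were of this kind, such as CCNG2, an atypical cyclin (-0.61 and -1.30), TRPS1, a GATA-type repressor (-0.60 and -1.28), and ARHGAP6 (-0.64 and -1.32). In contrast PDK4, which inhibits pyruvate dehydrogenase, with 1.28 and 2.25, and NDRG1, with 1.27 and 2.39, remained past 1.5 fold as departures, at 0.66 and 0.82.

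Several probe sets of a gene share the RNA and the array, so that their agreement speaks of the probes and is no replicate. The 34 genes called higher with a further probe set at a mean of log2 6 or more had 50 such probe sets, of which 46 (92%) had the same sign and 20 (40%) were past 1.5 fold themselves. For the 57 genes called lower it was 72 of 88 (81.8%) and 14 (15.9%). Over all 3615 genes with several probe sets, 63.9% of the further ones had the sign of the brightest and 2.43% were past 1.5 fold in it. For the 8 such genes called without AP21967, 6 of 8 further probe sets had the same sign and 0 were past 1.5 fold.

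For 11 genes all probe sets with a mean of log2 6 or more, at least 2 each, were higher by 1.5 fold, namely MSX2, HPCAL1, CARD14, SNN, TACC2, JAG1, EP400, NSDHL, FOXO1, TSPAN3 and DVL2. For 6 genes all such probe sets were lower, namely TOX3, MAN1A1, NET1, ATP1B1, PPP3R1 and CTBS. MSX2 had 1.49 and 1.21, and a dim probe set that stayed under log2 5 had 0.18. HPCAL1, a neuronal calcium sensor, had 0.87 and 1.08, with 10.87 in iKR and 10.21 in iWT after R5020 for the brighter. CARD14, a scaffold of NF-kB signaling in keratinocytes, had 0.81 and 0.89.

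FOXO1, a forkhead factor held back by AKT, had 0.63 and 1.251 but also 0.49 and -0.18 without AP21967. JAG1, a Notch ligand, had 0.66 and 1.47, and its brighter probe set had 0.71 without AP21967. Its dimmer probe sets, at means of 5.90 and 4.97, gave 0.06 and 0.60. The 3 TOX3 probe sets, all of a type that can match related transcripts, had -0.87, -1.04 and -0.85. KLF5, an epithelial Krüppel-like factor, was short of the threshold by its brightest probe set at -0.58, while the other gave -1.57, from 10.68 to 8.39 in iKR and from 10.19 to 9.46 in iWT.

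**Figure D5:**
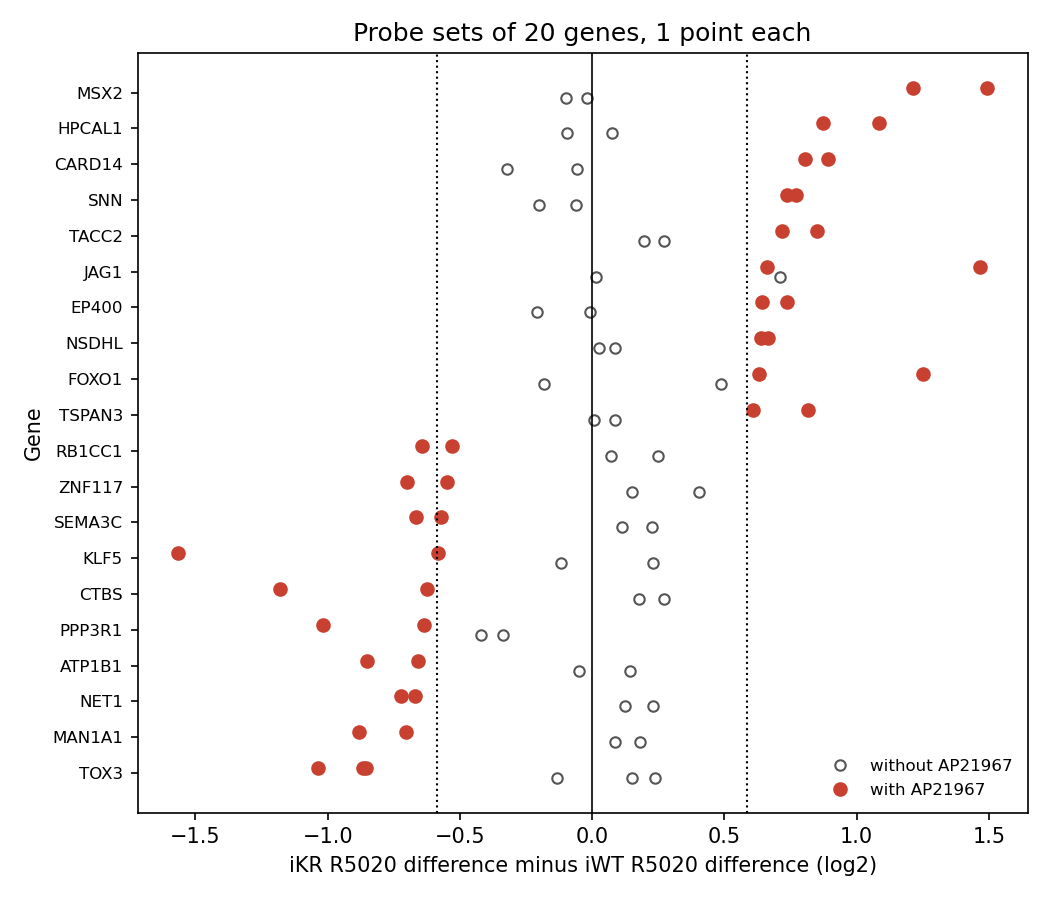
iKR minus iWT difference of the R5020 response (log2) for each probe set with a mean of log2 6 or more, for the 10 genes with the highest and the 10 with the lowest agreed differences; filled points are with and open points without AP21967, and dotted lines mark 1.5 fold. The filled points of MSX2 lie at 1.21 and 1.49 with open points at -0.10 and -0.02, and JAG1 has 1 open point at 0.71.

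The lists from the study's other T47D lines differed in how many of their genes were called, beside 1.03% and 1.48% of all genes. Of the 267 genes listed for both receptors 39 were called higher and 10 lower. Of 129 listed for the KR receptor 18 were higher and 1 lower, PGR, and of 234 listed for the wild-type receptor 4 were higher and 7 lower. Of 101 genes listed for a difference of KR over WT cells with ligand, 20 were called higher and 5 lower (24.8%), and of 56 so listed without ligand, 2 and 2. The median differences were 0.20, 0.14, 0.08, 0.14 and -0.02 in that order, against 0.04 over all genes.

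With 2.51% of all genes called in either direction, a list of 28 genes, the most tested in any list by function, would hold under 1 at that share. The lists by function were written with earlier results of these data known, so their counts are no test of an excess over it. Developmental transcription factors had 3 of 20 genes called higher, MSX2, HEY1 and SOX9, and 1 lower, EHF. SOX9 went from 8.18 to 8.60 in iKR and from 8.69 to 8.47 in iWT. RASGRP1 and DUSP6 were the called genes of 19 RAS-MAPK activators and feedback genes, and RGS2 and SOS2, at -0.08 and -0.45, were not. LIPE and PDK4 were higher and ACADM, medium-chain acyl-CoA dehydrogenase, lower among 19 genes of PDK kinases, lipolysis and fatty acid oxidation. ACADM went from 10.14 to 9.42 in iKR and from 9.99 to 10.03 in iWT.

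FAS, the death receptor, was higher (0.74) and PMAIP1 lower (-0.69) among 17 genes of cell death and survival. NFKBIE, an inhibitor of NF-kB, went from 8.61 to 9.69 in iKR and from 8.78 to 8.97 in iWT and was the one called among 17 NF-kB and cytokine genes. CEBPB, a bZIP factor of mammary differentiation, was at 10.57 with and without R5020 in induced iWT and went from 10.74 to 11.46 in iKR. It was the one called of 28 progestin and glucocorticoid response genes, whose median was -0.02. CLDN1 and PKP2, of tight junctions and desmosomes, were lower (-0.71 and -0.65) among 26 adhesion genes, and none was higher. The second PKP2 probe set, at a mean of 7.47, had the opposite sign at 0.16.

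The SUMO pathway itself and the cofactors of the receptor had no called gene, and at 2.51% lists of this size would hold under 1. Over 12 genes of SUMO conjugation and removal, the median was 0.17 and the largest values were -0.35 for RANBP2, a SUMO ligase of the nuclear pore, and 0.31 for PIAS1. Over 21 coactivators, corepressors and histone methylation genes, the median was 0.11 and the largest value 0.43, for CARM1, an arginine methyltransferase. Nor was any gene called among 27 mitosis, 20 immediate early, 18 cholesterol and fatty acid synthesis or 21 interferon-stimulated genes, lists that would each hold under 1 call at the share over all genes.

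In growth factor signaling EGF was the one called of 10 ERBB receptors and ligands and FOXO1 the one of 17 genes of IGF and insulin signaling, 10% and 5.88% beside 2.51% of all genes. EGF was lower, from 6.62 to 6.67 in iKR against 6.32 to 6.96 in iWT, and HBEGF had 0.31 and ERBB3 -0.52. IRS1, an adaptor of insulin and IGF receptors, was short of the threshold at -0.57, with 9.36 and 8.01 in iKR and 9.12 and 8.34 in iWT. STC1, BCL2L11 and MAT2A had 0.29, 0.21 and 0.30. Further STC1 probe sets, at means of 6.96 and 6.95, had the opposite sign, at -0.50 and -0.09. So did the dimmer BCL2L11 probe set, at -0.20, while the second MAT2A probe set gave 0.12.

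The promoters were searched for PR elements on both strands, in windows of 250 bases before to 50 after the start sites given by RefSeq (GRCh38.p14). Receptor sites are often far from start sites, so these windows hold a part of the regulatory sequence only. 84 of the 112 genes called higher and 135 of the 161 called lower have an entry, with 141 and 194 promoters, among 12952 promoters of 8754 tested genes. The full element, AGAACA and TGTTCT with any 3 bases between, was in 0 of these promoters. A looser form chosen after the data were seen, GNACA and TGTNC with any 3 bases between (N is any base), was in 40 (0.309%), and 2 of those belong to called genes, RGS19, called higher, and DMD, which encodes dystrophin, called lower at -0.62. A single arm TGTTCT, which the full element contains, was in 20 of 141 promoters of genes called higher (14.2%), 19 of 194 of genes called lower (9.79%) and 10.8% of all. Of the 24 genes with the largest differences, 17 have an entry with 25 promoters, and only that of GRAMD1C holds the single arm. The 3 matches are shown with 24 bases on each side and with the match in capitals, since they are the only matches in promoters of the called genes for the looser form and of these 24 genes for the single arm.
RGS19 (looser element, chr20:64079515-64079575, minus strand): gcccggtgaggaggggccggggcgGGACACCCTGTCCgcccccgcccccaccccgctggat
DMD (looser element, chrX:32412324-32412384, minus strand): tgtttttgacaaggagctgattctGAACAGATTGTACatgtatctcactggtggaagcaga
GRAMD1C (single arm on the opposite strand, chr3:113897367-113897420, plus strand): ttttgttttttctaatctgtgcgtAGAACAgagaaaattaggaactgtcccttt

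Counted from the start site, the RGS19 match begins at -33, the DMD match at -132 and the GRAMD1C arm at -109. RGS19 was higher with R5020 by 1.28 in iKR and 0.11 in iWT. DMD was at -0.73 and -0.12 and GRAMD1C at -1.80 and -0.69. A match describes letters in a window, and binding of the receptor was not measured on these arrays.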

How the data were processed

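Total RNA of 10 conditions, 1 array each, was measured on Affymetrix human genome arrays. The authors made the deposited log2 signals of 22277 probe sets with the Robust Multi-array Average method, which corrects background and equalizes the distributions of the arrays. Raw files and presence calls were not used here, and the table holds no columns of comparisons. The platform annotation names 1 gene for 19070 of them, 11963 genes in all. The brightest probe set by mean stood for its gene, and the 10894 genes at log2 6 or more on any of the 8 arrays were kept. Differences, slopes and counts were computed in Python 3.11.15 (numpy 2.4.6, pandas 2.3.3), checked on simulated data, and cyclic loess was run with limma 3.58.1 in R 4.3.3. No test was possible with 1 array per condition. Named genes are the 12 highest and lowest differences, the 10 largest departures each way, the 10 largest shared responders, the genes best agreed over probe sets, the 3 largest of each of 34 lists, and 16 genes of prior interest; others, such as CYP1A1 or DMD, were named after their values were seen. 6 lists are the study's (gene names only, found on other samples), and 28 were written for this work. Genes and lists were chosen with earlier results of these data known. Alternatives covered the level filter, normalization, probe set choice, baseline arrays, thresholds and the factor. 1 control transcript is not reported here.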

Additional observations from a re-analysis of the deposited data

Results flagged for a closer look

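Among the genes with the largest differences or departures, 4 moved in opposite directions by 0.2 or more in the induced lines. MSX2 was at -0.25 in iWT and 1.246 in iKR, a difference of 1.49. CDH10 was at -0.71 and 0.44 (1.16), with unlike starting levels. CCNE2 was at 0.40 and -0.89 (-1.29), but its second probe set was at 0.56 and 0.17, higher in both lines. PGR was at 0.55 and -0.71 (-1.26). With the mean of the 3 other arrays of each line as baseline, PGR was at 0.48 and -0.01. Each difference is between single arrays and was not tested.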

How the results depend on the processing

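The 8 arrays have 1 replicate per condition, so leaving out a replicate gives no value. No paired analysis was possible because each group has 1 array and all carry the same replicate number. The signs of the 273 differences past 1.5 fold held in all with the mean of the 3 other arrays of each line as baseline, which kept 78 of 112 higher and 106 of 161 lower genes. Changes of baseline reuse the R5020 arrays that made the calls, and this mean also holds the AP21967 vehicle arrays. The kept signs are therefore no independent check. With the uninduced vehicle array as baseline 92 genes were lower, and 72 of the 112 and 70 of the 161 were called again, and net of the difference without AP21967 263 were higher and 418 lower. At 1.3 fold, 554 genes were higher and 552 lower with AP21967, 125 and 111 without it, and 729 and 657 by departure. At 2.0 fold, the counts were 15 and 13, 0 and 1, and 14 and 20. Without probe sets that may match several transcripts (_x_at and _s_at), 73 of 7226 genes tested were higher and 77 by departure, and 67 of 75 higher and 96 of 108 lower genes still measured were called again. In the reference, 5 genes were lower at a mean of log2 7 or more and 7 higher when probe sets were averaged.

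The common factor was 1.09 by least squares of iKR on iWT and 1.502 on unlogged signals, and between 1.17 and 1.34 under the other alternatives, always above 1. Of 28 lists with 10 or more genes, 5 had a median over 0.1 from that of all genes, and 8 did net of the difference without AP21967. The median of ERBB receptors and ligands was -0.11, and 0.0503 when probe sets were averaged. That of coactivators and corepressors was 0.11, and -0.0739 when probe sets were averaged and -0.0116 without the _x_at and _s_at types. JAG1 alone among the called named genes changed sign, to -0.0494 net of the difference without AP21967. The looser element was in 0.709% and the single arm in 14.2% of promoters of genes called higher. Without replicates, none of these values has an error estimate. The spread of the reference, 0.16, is taken over genes and is not the error of a gene, a count or a median. It was 0.19 for genes at log2 6 to 7 and 0.08 for genes above log2 12.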

Other observations

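Genes whose symbol names a zinc finger protein (ZNF) were 10 of the 161 genes called lower (6.21%) and 2 of the 112 called higher (1.79%), beside 2.15% of all genes tested. Over all 234 of them, the median difference was -0.01, and 0.04 without AP21967. The median span of the gene on the genome was 56.4 kb for genes called lower, 40.8 kb for those called higher and 28.9 kb for all. Both features were looked at after the calls were known.

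Over all genes, far more passed 1.5 fold with R5020 in induced iKR alone than in iWT alone. 192 genes were higher in iKR only and 36 in iWT only, with 138 in both. 267 were lower in iKR only and 34 in iWT only, with 77 in both. A gene just under the threshold in 1 line counts here as unchanged in it.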
